A study of Mus musculus with 6 samples.

Results

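Collagen genes were compared between hypoxic mouse cardiomyocyte cultures with and without fibroblast growth factor 21 (FGF21). The members are the genes whose symbol has the form Col, a number, the letter a and a number, taken from rows that the platform annotation gives a single symbol. There were 44 such genes among the 22180 genes measured: 11 fibrillar, 8 basement membrane and 25 other collagens. Where a gene had several rows, its brightest row across the 6 arrays stood for it.

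The cells came from hearts of 1-day-old C57BL/6 mice, and a short pre-plating step on fibronectin was used to enrich cardiomyocytes. All 6 cultures were kept for 12 h in low oxygen, at 2% O2, 5% CO2 and 93% N2. FGF21 was present at 1 µg/ml in 3 cultures (FGF21 replicates 1 to 3) and absent from 3 (control replicates 1 to 3), and each total RNA sample was measured on 1 Affymetrix Mouse Gene 2.0 ST array. The study asked which genes respond to FGF21 under hypoxia. Since the controls were hypoxic too, the response of collagens to hypoxia itself was not analysed here. The titles call the samples biological replicates but do not say whether they came from separate litters or cultures, so the spread behind the p-values may be technical in part.

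Collagens are extracellular proteins built from 3 polypeptide chains wound into a triple helix, in which glycine recurs at regular steps. Fibrillar collagens assemble into the cross-banded fibres that carry tension, and in the heart they are made chiefly by fibroblasts. Type IV chains form the sheet-like network of basement membranes, which surround cardiomyocytes and underlie endothelium. The other families include the beaded filaments of type VI, the FACIT collagens that sit on fibril surfaces, short-chain network formers and transmembrane collagens.

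The cultures carried markers of both muscle and stroma. All values here are log2 array values, and values of different probe sets are not amounts that can be set against each other. The cardiomyocyte troponin gene Tnnt2 averaged 13.15 ± 0.0228 (SD, n = 3) with FGF21 and 13.13 ± 0.0337 without. Of the fibroblast genes outside the collagen family, Dcn, the proteoglycan decorin, averaged 12.03 ± 0.0874 with FGF21 and 11.99 ± 0.0337 without. Postn, the matricellular periostin, averaged 12.87 ± 0.054 with FGF21 and 12.81 ± 0.0132 without. The arrays are of whole cultures, so fewer cells of a type and less RNA per cell cannot be told apart. Array medians over all rows ran from 5.76 to 5.83, and correlations between arrays over all genes from 0.993 to 0.997. Of the 44 collagens, 38 had a mean above the lowest array median. The 6 that did not were Col6a4, Col6a5, Col10a1, Col17a1, Col19a1 and Col28a1. Whether these were above background was not tested.

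No collagen gene passed the test over all genes. limma with Benjamini-Hochberg adjustment over 22180 genes called 0 of 44 collagens at an adjusted p under 0.05, against a background of 0% of all genes (0 genes). The smallest adjusted p among collagens was 0.338, for Col6a1. At an unadjusted p under 0.05 there were 4 collagens, or 9.09%, against 11.7% of all genes, so the share was near the background. These were Col2a1, Col6a1 and Col6a3, lower with FGF21 (3 of 44, background 5.11%), and Col8a1, higher with FGF21 (1 of 44, background 6.59%). At an adjusted p under 0.1 limma also called 0 of 44, with a background of 0.126%. An ordinary equal-variance statistic also called 0 after adjustment, with 3 at an unadjusted p under 0.05 (Col5a3, Col13a1 and Col14a1). With quantile normalization applied again, limma again called 0, and 7 had an unadjusted p under 0.05, all 7 lower. That is 15.9% of collagens, against 9.55% of all genes in that setting, so which share is larger depends on the scaling.

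The groups of 3 arrays did not overlap for 6 of the 44 collagens (13.6%), against 17.1% of all genes. FGF21 arrays were all lower for Col1a1, Col5a3, Col4a3, Col6a1 and Col13a1 (5 genes, background 8.14%) and all higher for Col14a1 (1 gene, background 8.99%). Over the whole family 15 differences were above 0 and 29 below, which is 34.1% above against 47.8% of all genes. The median difference, FGF21 minus control, was -0.06 on the log2 scale, against -0.01 for all genes, and the quartiles were -0.11 and 0.03. These shares are descriptions, since the members vary together within an array and are not replicates of the treatment. The mean over the 44 genes was 7.43, 7.43 and 7.40 with FGF21 and 7.48, 7.45 and 7.46 in controls.

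The 95% intervals give the precision of each difference in array values. They were taken gene by gene, without adjustment, and rest on the spread between these arrays. Since processing compresses differences of dim genes, they do not bound the true change in RNA. For 40 of the 44 collagens the interval spanned 0. For 40, all but Col6a1, Col6a2, Col6a3 and Col8a1, it lay inside a change of 1.3-fold in either direction, and for all 44 inside 1.5-fold. The widest reach was 1.37-fold, at the lower bound of Col6a2.

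**Figure D1:**
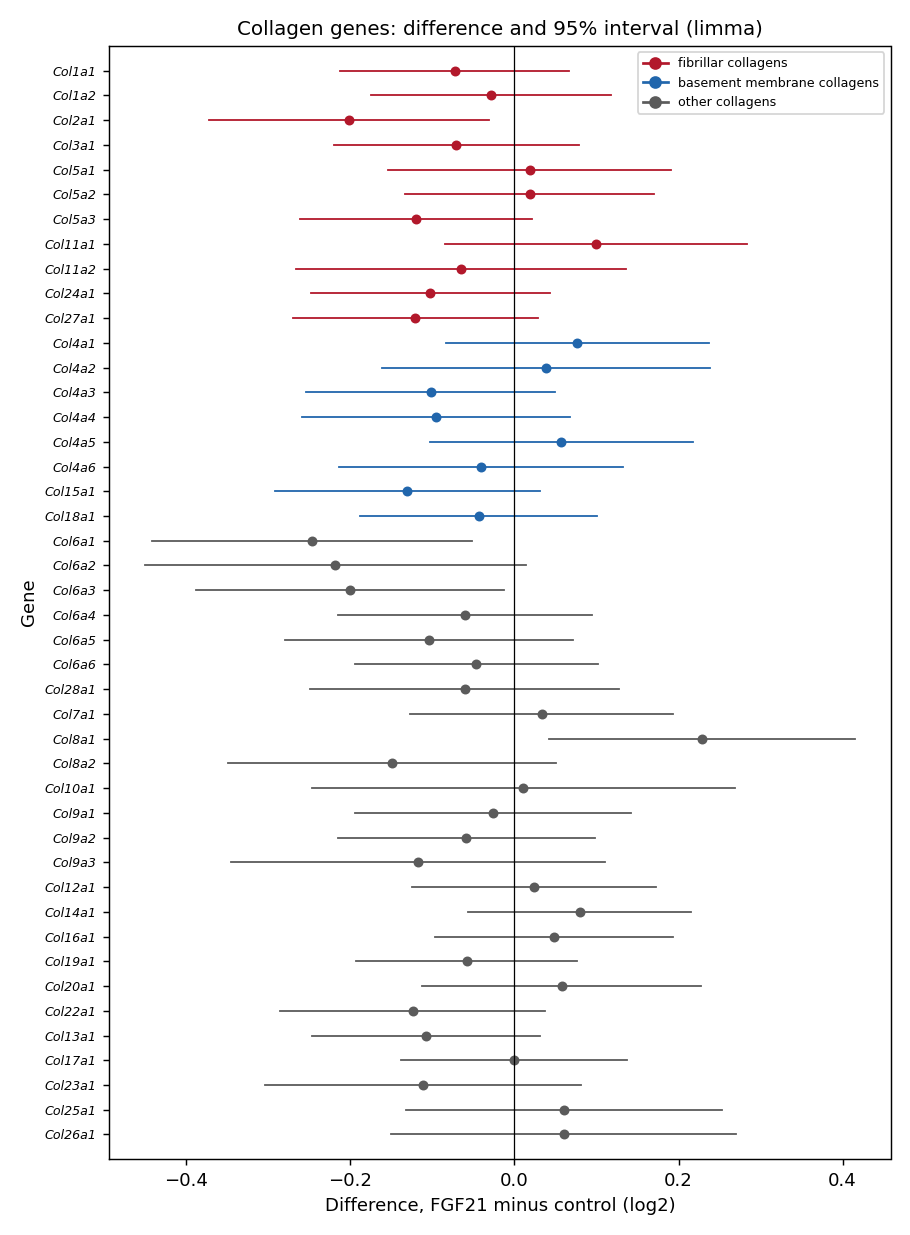
Difference between FGF21 and control (log2, x axis) for each of the 44 collagen genes (y axis), with points for the estimate and lines for limma's 95% interval; colours mark the 3 classes. The intervals of 40 genes span 0, Col2a1, Col6a1 and Col6a3 lie below 0 and Col8a1 lies above.

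The type I and type III chains, which make up most of the fibrillar collagen of the heart, had small differences. Col1a1, the major chain of type I collagen (probe set 17255260), had values of 11.96, 11.99 and 11.89 with FGF21, against 12.07, 12.00 and 11.99 in controls. All 3 FGF21 arrays were below the 3 controls, by little: the highest FGF21 array and the lowest control both rounded to 11.99. The difference was -0.07 ± 0.06 (SE), a fold of 0.951 with a 95% interval of 0.863 to 1.05 (limma adjusted p of 0.678). Col1a2, the second type I chain, had 11.37, 11.38 and 11.30 with FGF21 and 11.42, 11.42 and 11.30 in controls. Its groups overlapped, with a fold of 0.98 (interval 0.886 to 1.08). Col3a1, the chain of type III collagen that co-assembles with type I, had 10.79, 10.93 and 10.90 with FGF21 and 10.98, 10.97 and 10.88 in controls. FGF21 replicate 1 was the low array, control replicate 3 lay below both other FGF21 arrays, and the fold was 0.952 (interval 0.858 to 1.06). Without FGF21 replicate 1 the difference of Col3a1 was -0.03, against -0.07 with all arrays, and without FGF21 replicate 3 that of Col1a1 was -0.05. That of Col1a2, -0.03 with all arrays, ran from -0.07 without control replicate 3 to -0.01 without FGF21 replicate 3.

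The type V chains nucleate fibrils and set their diameter. Col5a1 had 9.39, 9.57 and 9.37 with FGF21 and 9.52, 9.38 and 9.38 in controls, and Col5a2 had 9.69, 9.76 and 9.61 with FGF21 and 9.63, 9.73 and 9.63 in controls. Both overlapped, at a difference of 0.02 each, and both turned below 0 with quantile normalization applied again or without FGF21 replicate 2. A second, dimmer row of Col5a1 differed by -0.20. Col5a3, the third type V chain, had 6.73, 6.84 and 6.81 with FGF21 against 6.93, 6.88 and 6.94 in controls. The groups were apart, with a difference of -0.12 ± 0.06 (limma adjusted p of 0.498).

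The remaining fibrillar genes are better known from cartilage and bone. Col2a1, the main fibrillar collagen of cartilage, had 6.92, 7.06 and 6.96 with FGF21, against 7.22, 7.28 and 7.06 in controls. FGF21 replicate 2 and control replicate 3 met at 7.06, so the groups overlapped narrowly. Its fold was 0.869 (interval 0.772 to 0.979), with an unadjusted p of 0.025 and a limma adjusted p of 0.358. Col11a1, which is found in thin cartilage fibrils, differed by 0.10, with control replicate 3 at 7.86 beside FGF21 replicate 2 at the same value. Col27a1, Col24a1 and Col11a2 differed by -0.12, -0.10 and -0.07. Over the 11 fibrillar genes, 3 were above 0 and 8 below, the median was -0.07 and the range -0.20 to 0.10.

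Among basement membrane collagens, the main type IV chains stood slightly above controls. Col4a1, a chain of the type IV network found in nearly all basement membranes, had 10.16, 10.13 and 10.05 with FGF21 and 10.15, 9.98 and 9.98 in controls. Control replicate 1 was as high as the FGF21 arrays, and the fold was 1.05 (interval 0.943 to 1.18). The difference was 0.14 without control replicate 1, against 0.08 with all arrays. Col4a2, its partner in the same trimer, had 9.81, 9.76 and 9.58 with FGF21 and 9.82, 9.67 and 9.55 in controls. In both groups replicate 1 was the highest and replicate 3 the lowest for Col4a2, and the groups overlapped throughout. Its difference of 0.04 ± 0.09 turned to -0.01 without FGF21 replicate 1 and to -0.03 without control replicate 3.

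The other type IV chains went both ways. Col4a3, a chain of kidney and inner ear basement membranes, had 5.78, 5.83 and 5.74 with FGF21 and 5.99, 5.84 and 5.83 in controls. The highest FGF21 array lay below the lowest control array by less than the rounding shown, and the means differed by -0.10 ± 0.07 (SE, n = 3 each; limma adjusted p of 0.584). Its partner Col4a4 differed by -0.10 and Col4a5 by 0.06. Col4a6 differed by -0.04. The chains lie in neighbouring pairs in the RefSeq annotation (Col4a1 beside Col4a2, Col4a3 beside Col4a4, Col4a5 beside Col4a6). In these data the differences had the same sign within the first 2 of these pairs and opposite signs in the last.

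The multiplexins, which carry an endostatin-type fragment at the end of the chain and sit in or near basement membranes, were not called either. Col15a1, found around heart and skeletal muscle and capillaries, had 7.32, 7.41 and 7.23 with FGF21 and 7.49, 7.50 and 7.37 in controls. FGF21 replicate 2 lay above control replicate 3, and the fold was 0.914 (interval 0.817 to 1.02; limma adjusted p of 0.514). Col18a1, the source of endostatin, had 6.10, 6.06 and 6.15 with FGF21 and 6.20, 6.16 and 6.07 in controls. These overlapped, at -0.04 ± 0.06. Over the 8 basement membrane genes, 3 differences were above 0 and 5 below, with a median of -0.04. With the type IV chains alone (6 genes) the median was -0.000806.

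Of the other collagens, the 3 main type VI chains had the most negative differences. Type VI collagen is assembled from its alpha 1, alpha 2 and alpha 3 chains into beaded filaments that link cells to the matrix around them. Col6a1 (probe set 17242177) had 9.44, 9.67 and 9.73 with FGF21, against 9.96, 9.81 and 9.81 in controls, a fold of 0.843 (interval 0.736 to 0.965; unadjusted p of 0.0183, limma adjusted p of 0.338). All FGF21 arrays were below all controls. Col6a2 had 8.49, 8.70 and 8.66 with FGF21 and 8.98, 8.92 and 8.60 in controls, a fold of 0.86 (interval 0.732 to 1.01; limma adjusted p of 0.457). Control replicate 3 was low among the controls and lay inside the range of the FGF21 arrays. Col6a3 had 8.27, 8.49 and 8.33 with FGF21 and 8.70, 8.52 and 8.46 in controls, a fold of 0.87 (interval 0.764 to 0.991; unadjusted p of 0.0391, limma adjusted p of 0.399). FGF21 replicate 2 lay above control replicate 3.

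The 3 chains shared their order at both ends: FGF21 replicate 1 was the lowest array and control replicate 1 the highest for each of Col6a1, Col6a2 and Col6a3. Without FGF21 replicate 1 the difference of Col6a1 was -0.16, against -0.25 with all arrays, and no collagen had an unadjusted p under 0.05 (0 of 44, against 13.7% of all genes in that setting). Without control replicate 1, Col6a2 was at -0.15 and Col6a3 at -0.13. The related chains Col6a4, Col6a5 and Col6a6 and the type XXVIII chain Col28a1 differed by -0.06, -0.10, -0.05 and -0.06, so all 7 beaded filament genes were below 0. 3 of these 7 (Col6a4, Col6a5 and Col28a1) were dim.

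Col8a1 had the highest difference of the family. It encodes a short-chain network collagen found in vessel walls and under the corneal endothelium. It had 8.60, 8.52 and 8.42 with FGF21, against 8.16, 8.28 and 8.43 in controls, a fold of 1.17 (interval 1.03 to 1.33; unadjusted p of 0.0215, limma adjusted p of 0.346). FGF21 replicate 1 was the highest array and control replicate 1 the lowest, and control replicate 3 just exceeded FGF21 replicate 3. Leaving out control replicate 1 gave a difference of 0.16, and leaving out control replicate 3 gave 0.30. Col8a2, the second type VIII chain, differed by -0.15, and Col10a1, the network collagen of hypertrophic cartilage, by 0.01.

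**Figure D2:**
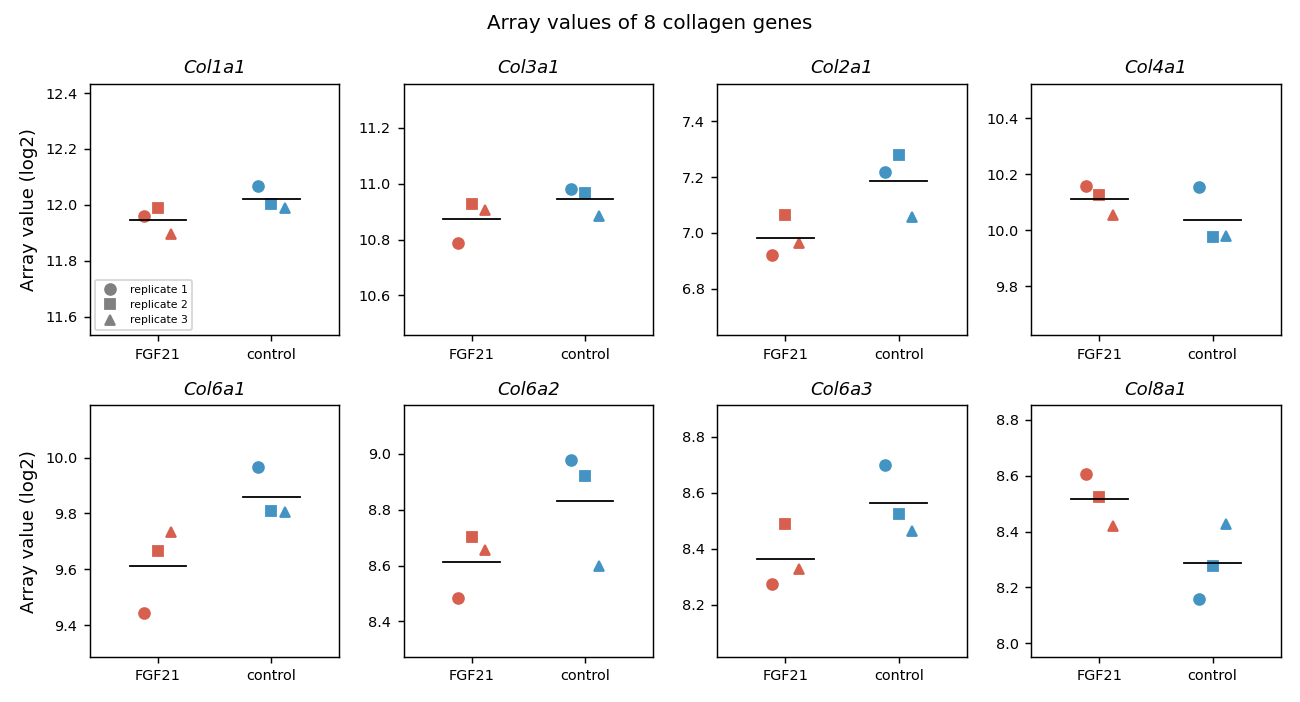
Array values (log2, y axis) of 8 collagen genes in FGF21 and control cultures (x axis), with symbols for the replicate number and lines for the means of 3 arrays. Each panel spans the same height, so the distance between groups for Col6a1 (-0.25) and Col8a1 (0.23) can be read against that for Col1a1 (-0.07) and Col4a1 (0.08).

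To show the start regions of the type VI genes, whose values were lower together, and of Col8a1, with the opposite sign, the 120 bases before the outermost RefSeq start of each gene are printed from the RefSeq promoter table (build GRCm38.p6), 5′ to 3′. Capitals mark the letters GGGCGG, the GC box bound by Sp1-type factors, or their reverse complement.
Col6a1, chr10:76726045-76726164, minus strand: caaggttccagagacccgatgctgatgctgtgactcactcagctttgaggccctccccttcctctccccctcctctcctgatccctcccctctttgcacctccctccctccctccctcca
Col6a2, chr10:76623631-76623750, minus strand: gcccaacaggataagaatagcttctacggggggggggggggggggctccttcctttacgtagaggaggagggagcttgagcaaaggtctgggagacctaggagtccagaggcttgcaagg
Col6a3, chr1:90844002-90844121, minus strand: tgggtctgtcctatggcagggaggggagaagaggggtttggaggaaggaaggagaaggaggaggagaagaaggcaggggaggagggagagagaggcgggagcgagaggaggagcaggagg
Col8a1, chr16:57754738-57754857, minus strand: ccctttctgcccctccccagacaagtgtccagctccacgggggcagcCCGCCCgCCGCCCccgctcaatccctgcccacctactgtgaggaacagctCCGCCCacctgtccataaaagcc

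The Col8a1 window held 3 GC boxes and the 3 type VI windows held 0 each. In the 120 bases before each listed start, 26.5% of 32851 RefSeq promoters and 18 of 38 collagen promoters (47.4%, from 35 of the 44 genes) held at least 1 such box on either strand. The letters CCAAT, on either strand, were in 0 of the 4 windows and in 21.3% of all promoters. TATAAA, on either strand, was also in 0 of the 4 and in 6.34% of all. These are matches of letters in a window and were not tied to the array values.

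The FACIT collagens, which decorate the surface of fibrils, included the only collagen with all FGF21 arrays above all controls. Col14a1, a FACIT of fibroblasts and tendon, had 9.62, 9.67 and 9.66 with FGF21 and 9.62, 9.54 and 9.55 in controls, a difference of 0.08 ± 0.06 (limma adjusted p of 0.642). The lowest FGF21 array and the highest control met at 9.62 after rounding. Col12a1, a FACIT of tissues under load, had 10.20, 10.34 and 10.26 with FGF21 and 10.31, 10.21 and 10.21 in controls. It overlapped at a fold of 1.02 (interval 0.917 to 1.13) and turned below 0 with quantile normalization applied again or without FGF21 replicate 2. The other FACIT genes differed by 0.06 for Col20a1, 0.05 for Col16a1, -0.03 for Col9a1, -0.06 for Col9a2 and Col19a1, and -0.12 for Col9a3 and Col22a1.

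The transmembrane collagens, which span the cell surface and can be shed from it, had no call. Col13a1, found at cell adhesions and muscle junctions, had 6.70, 6.72 and 6.63 with FGF21 and 6.75, 6.80 and 6.82 in controls. Its groups did not overlap, at -0.11 ± 0.06 (limma adjusted p of 0.529). Col23a1 differed by -0.11 and Col25a1 by 0.06. Col17a1, of skin hemidesmosomes, had means of 5.66 with and without FGF21. Col7a1, which forms the anchoring fibrils of skin, differed by 0.03 and Col26a1 by 0.06. Over the 25 other collagens, 9 were above 0 and 16 below, with a median of -0.06.

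The 3 classes had medians of -0.07 (fibrillar), -0.04 (basement membrane) and -0.06 (other), each within 0.07 of the median of all genes. The difference between classes was not tested, since genes of a class share their arrays. With each array centred on its median the 3 medians were -0.05, -0.02 and -0.04, and with quantile normalization applied again -0.07, -0.02 and -0.01.

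Fibroblast markers outside the collagen family ordered the control arrays differently from the fibrillar genes, but the FGF21 arrays alike. Their mean over 15 measured genes of 16 listed was 9.23, 9.33 and 9.30 with FGF21 and 9.19, 9.30 and 9.29 in controls. The median difference was 0.04, with 9 above 0 and 6 below. 2 had an unadjusted p under 0.05 (13.3%, against 11.7% of all genes), and neither passed limma's adjustment. S100a4, a calcium-binding protein also made by leukocytes, was higher by 0.32 and the surface glycoprotein gene Pdpn by 0.19. Pdgfra, the receptor that marks cardiac fibroblasts, differed by 0.04 and Tcf21, their transcription factor, by 0.08. Among the 6 below 0, Fap differed by -0.21, Fbln1 by -0.14 and Dpt by -0.09. The groups did not overlap for 6 of the 15 (5 higher, and Fbln1 lower), which is 40% against 17.1% of all genes. The fibrillar mean over 11 genes was 8.51, 8.60 and 8.53 with FGF21 and 8.62, 8.60 and 8.59 in controls. Control replicate 1 was thus the highest array for fibrillar collagens and the lowest for fibroblast markers.

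Most endothelial markers and some pericyte markers were lower in the arrays where type VI genes were lower. Of 14 endothelial markers, 12 were below 0 and 8 had an unadjusted p under 0.05, all lower (57.1%, background 5.11%). Their mean was 7.18, 7.38 and 7.38 with FGF21 and 7.65, 7.54 and 7.46 in controls. Of 10 smooth muscle and pericyte markers, 7 were below 0 with 3 at an unadjusted p under 0.05 (Kcnj8, Abcc9 and Rgs5, listed here as pericyte markers). At that level 1 was higher (Myh11, a smooth muscle myosin). These 4 were 40% of the list, against 11.7% of all genes. Abcc9 had 9.65, 9.69 and 9.76 with FGF21 and 10.50, 9.99 and 9.97 in controls. Which cells gave its signal in these cultures was not tested. Pdgfrb, Cspg4 and Notch3, of the same list, differed by -0.03, 0.02 and -0.02, and the list median was -0.04. The list mean was 8.67, 8.78 and 8.74 with FGF21 and 8.97, 8.90 and 8.81 in controls. In both lists FGF21 replicate 1 was the lowest array and control replicate 1 the highest, as for Col6a1, Col6a2 and Col6a3. This order was not particular to vessel cells. The fibrillar collagen mean had the same lowest and highest array (8.51 and 8.62). Control replicate 1 was also the highest for the laminin, nidogen, perlecan and agrin genes (8.36) and for cardiomyocyte markers. RMA values have no zero, so no marker was at 0. The part of these cells in the type VI values was not tested. Means of the 14 cardiomyocyte markers were 10.90, 10.87 and 10.83 with FGF21 and 11.02, 10.87 and 10.85 in controls, and 0 of 14 had an unadjusted p under 0.05.

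Of the other lists, 4 of 8 epicardial and mesothelial markers had an unadjusted p under 0.05, all higher (Krt19, Msln, Upk1b and Lrrn4). That is 50%, with a background of 6.59%. Above 0 were 7 of 8, or 87.5%, against 47.8% of all genes. Of the same list, Wt1 differed by -0.04, Tbx18 by 0.09, Upk3b by 0.08 and Krt8 by 0.09, each with overlapping groups. The list means were 7.90, 8.03 and 7.97 with FGF21 and 7.75, 7.86 and 7.87 in controls. Among 8 leukocyte markers Cd68 differed by -0.20 and Ptprc by 0.20, both at an unadjusted p under 0.05 (25%, against 11.7% of all genes). Of 4 measured Schwann cell markers, S100b alone had an unadjusted p under 0.05 (25%, against 11.7% of all genes). It differed by -0.22 and was dim, with means of 5.34 with FGF21 and 5.56 without, below the lowest array median of 5.76. Sox10 and Erbb3 differed by -0.15 and -0.08, and Foxd3 by 0.07. None of these passed limma's adjustment, and their part in the collagen values was not tested.

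**Figure D3:**
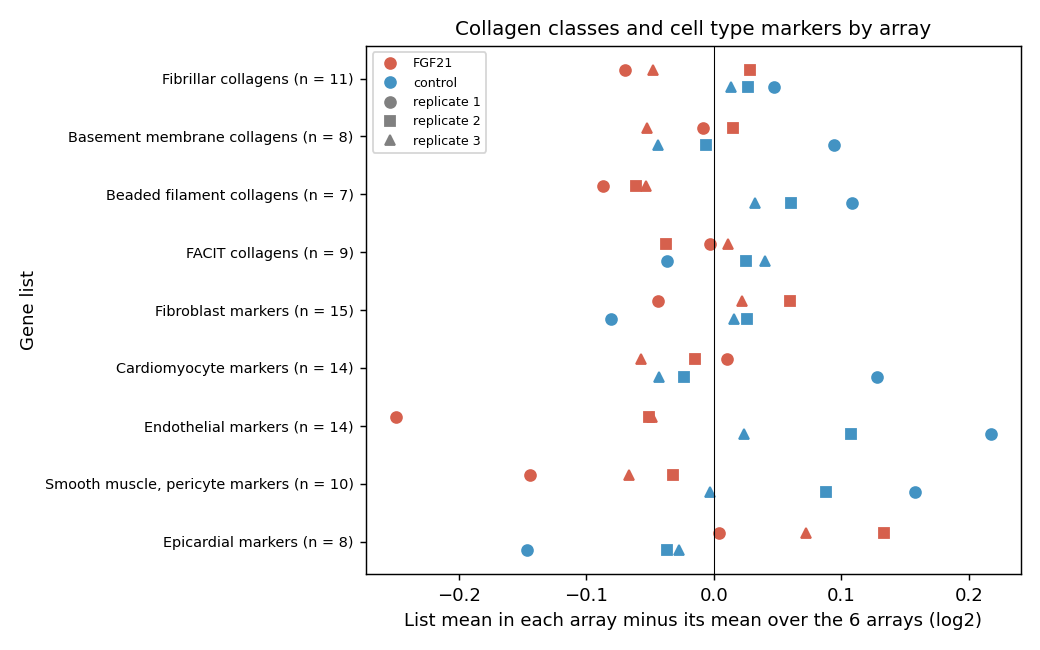
Mean of each gene list in each array minus its mean over the 6 arrays (log2, x axis) for 4 collagen groups and 5 marker lists (y axis), with colours for the groups and symbols for the replicate number. Beaded filament collagens and endothelial, smooth muscle and pericyte markers are lower in all 3 FGF21 arrays. Epicardial markers are higher in all 3, while fibroblast markers overlap.

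Collagen chains are hydroxylated, glycosylated and folded in the endoplasmic reticulum, and most genes of this step were above 0. Of 20 measured genes of 22 listed, 15 were above 0 (75%, against 47.8% of all genes) and 5 below, with a median of 0.04. 3 had an unadjusted p under 0.05, all higher, and 0 passed the adjustment. The 3 were 15% of the list, with a background of 11.7% in either direction and 6.59% higher. The groups did not overlap for 6 of the 20 (4 higher and 2 lower), which is 30% against 17.1% of all genes. P3h2, at 0.15, was among the 4 higher. P4ha3, a subunit of prolyl 4-hydroxylase, the enzyme that stabilises the helix, had 7.88, 7.94 and 7.98 with FGF21 and 7.63, 7.68 and 7.47 in controls. All FGF21 arrays were higher, by a fold of 1.26 (limma adjusted p of 0.177). The other prolyl hydroxylase subunits differed by 0.10 for P4ha2, 0.04 for P4ha1 and -0.09 for P4hb. P4hb, and Ppib of the same list (also -0.09), had all FGF21 arrays below all controls. Creb3l1, a transcription factor that drives procollagen genes in bone, was 1.16-fold higher and Mia3, which loads procollagen into transport vesicles, 1.11-fold, each with the groups apart (limma adjusted p of 0.385 and 0.408). Serpinh1, the collagen chaperone HSP47, differed by 0.00.

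Outside the cell, 0 of 13 measured genes of processing and crosslinking had an unadjusted p under 0.05. Loxl1, a lysyl oxidase-like crosslinking enzyme, differed by 0.18, Lox by 0.06, the procollagen proteinase Bmp1 by -0.01 and its enhancer Pcolce by -0.10. Of 13 genes of breakdown and its inhibitors, 1 had an unadjusted p under 0.05 (7.69%, against 11.7% of all genes). This was Mmp3, stromelysin 1, at 8.36, 8.29 and 8.17 with FGF21 and 7.91, 7.99 and 8.04 in controls, with the groups apart (1.22-fold, limma adjusted p of 0.212). Mmp2 and Mmp14, which cleave gelatin and collagen, differed by -0.09 and -0.11, and the inhibitor Timp1 by 0.16.

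Of 8 measured collagen receptors, Itga1 alone had an unadjusted p under 0.05 (12.5%, against 11.7% of all genes). It encodes the alpha 1 chain of an integrin that binds type IV and type I collagen. Itga1 had 8.497, 8.68 and 8.69 with FGF21 and 9.10, 8.996 and 8.81 in controls, a difference of -0.35 ± 0.09 with the groups apart (limma adjusted p of 0.219). FGF21 replicate 1 was again lowest and control replicate 1 highest. Its partner Itgb1 differed by 0.02, Itga2 by -0.01 and the receptor kinase genes Ddr1 and Ddr2 by 0.02 and 0.09. Of 14 measured laminin, nidogen, perlecan and agrin genes, 3 were above 0 and 11 below, with a median of -0.05 and 0 at an unadjusted p under 0.05.

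TGF-beta is a main inducer of collagen genes, and its ligands, receptors and targets had a median of 0.04 over 13 measured genes. Ccn2, a matricellular target, had 10.32, 10.26 and 10.15 with FGF21 and 9.95, 9.94 and 9.98 in controls (1.22-fold, limma adjusted p of 0.193). Skil, a feedback target, had 8.07, 8.41 and 8.22 with FGF21 and 7.96, 7.97 and 7.97 in controls (1.202-fold, limma adjusted p of 0.307). Both had all FGF21 arrays above all controls, and they were the 2 of 13 genes with an unadjusted p under 0.05 (15.4%, against 11.7% of all genes). Smad7 and Tgfbi, of the same list, differed by 0.02 and -0.07. Of the 13 genes, 9 were above 0 and 4 below. The ligands Tgfb1, Tgfb2 and Tgfb3 differed by 0.01, 0.04 and -0.11.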

How the data were processed

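The deposited values are log2 array values that the authors made by the robust multi-array average (RMA), per the submitters' processing notes, which name R 3.2.2 and affy. The method subtracts background, gives all arrays like distributions and summarises probes. It compresses differences of dim genes and can hide a shift shared by all genes. The chip definition, genome build, slides and scan dates were not given in the sources used here. All 6 columns of 41345 rows were matched to samples by their identifiers. Rows were named from the platform annotation: 23521 had 1 symbol, 1814 several and 16010 none. No array pair was identical (0 pairs).

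FGF21 was compared with control in limma 3.58.1 (R 4.3.3; lmFit and eBayes, default prior, no covariate, two-sided, 3 arrays per group) over 22180 genes, with Benjamini-Hochberg adjustment and a threshold of 0.05. The number of arrays limits the precision. The fit was tested on simulated data. Members, classes, gene lists and the named genes were chosen with earlier results of these data known. Per-array values are given for a fixed set of 15 collagens, for members with an unadjusted p under 0.05, and for members whose groups did not overlap, the last picked after their values were seen. Of each other list up to 4 genes of smallest p were named; further list genes were picked after their values were seen. Whether replicate numbers pair the arrays was checked by the correlation of deviations from group means. It was 0.103, 0.158 and 0.00653 for the same number (replicates 1 to 3). For different numbers it ran from -0.16 to 0.0416, so replicates 1 and 2 lay above that range. Deviations cancel within a group, so a higher value for the same number lowers those for different numbers. The range is thus not an independent yardstick. With the number as a block, 13.1% of all genes had an unadjusted limma p under 0.05, against 11.7% without. The replicate numbers were not taken as pairs in the reported setting. Alternatives were a replicate block, leaving out each array, row averaging, 2 level filters, 2 scalings, a trend and robust prior, array weights and an ordinary statistic.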

Additional observations from a re-analysis of the deposited data

How the results depend on the processing

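No setting brought a collagen past an adjusted p under 0.05, and the count was 0 at 0.1 as well. The count at an unadjusted p under 0.05, 4 in the reported setting, ran from 0 without FGF21 replicate 1 (0% of collagens against 13.7% of all genes) to 6 without control replicate 3 (13.6% against 9.15%). It was 2 without FGF21 replicate 3 or control replicate 1, and 1 without control replicate 2. The 2 without control replicate 1 were Col9a3 and Col22a1, so none of the reported 4 was among them. It was 7 with quantile normalization applied again (15.9% against 9.55% of all genes; 0 higher and 7 lower, against 1 higher and 3 lower in the reported setting). With the replicate number as a block it stayed at 4, the count past adjustment at 0, and the medians did not move. With an array left out, medians ran from -0.0663 to -0.0371 for all collagens, -0.0977 to -0.0383 for fibrillar, -0.0717 to -0.0253 for basement membrane and -0.0816 to -0.0181 for other collagens. The basement membrane median was -0.000806 for type IV chains alone and 0.0387 with only the brighter genes kept, those above the median level, which removed 3 of its 8 members. Differences of 16 collagens were recomputed one by one: the fixed set and Col2a1. Of 239 values, 228 kept their sign and 11 turned, all in genes within 0.04 of 0. The replicate block, the level filters, the trend and robust prior and the ordinary statistic leave every difference unchanged. Row averaging can change only genes with several rows. The count of 228 thus includes values that could not turn. With an array left out, Col5a1 ran from -0.0449 to 0.0672, Col5a2 from -0.0182 to 0.0569, Col4a2 from -0.0275 to 0.111 and Col12a1 from -0.0138 to 0.0588. Col5a1 was -0.0913 as the mean of its rows. With quantile normalization applied again Col5a1 was -0.0313, Col5a2 -0.0178 and Col12a1 -0.0127. The cause of these turns was not tested. Col4a2 was also at -0.00764 without FGF21 replicate 1, and Col5a1 at -0.00595 without control replicate 2 and -0.00533 without control replicate 3.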

Other observations

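3 collagens had a second row of their own that the choice of the brightest row left out. The second row of Col5a1 (probe set 17383350) had 6.89, 6.63 and 6.56 with FGF21 and 6.96, 6.77 and 6.95 in controls, a difference of -0.20, against 0.02 for the row used. The second row of Col6a1 (17547505) differed by -0.14 and that of Col1a2 (17548532) by -0.11, both in the direction of the row used.

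A further row (17547507) is annotated to Col6a1 together with the ribosomal protein gene Rps21, Gm5963 and Gm19810. It had 8.72, 8.87 and 8.77 with FGF21 and 8.35, 8.55 and 8.48 in controls, a difference of 0.33 with an unadjusted p of 0.00378 in limma over all rows. This runs against the single-gene Col6a1 rows, and it was not counted as a collagen because the row names several genes.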
